A study of Mus musculus with 6 samples.

Results

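Chromatin accessibility was examined at 10 genes of the insulin-like growth factor (IGF) axis and of FoxO-dependent quiescence control: Igf2, Igf1r, Igf2r, Igfbp3, Igfbp4, Igfbp5, Irs1, Irs2, Foxo1 and Foxo3. An ATAC-seq peak was assigned to a gene when the deposited annotation gave it that symbol, which the annotation does within 10000 bp of the gene, or when it had no gene and lay between the start and the stop of the gene. This gave 99 of the 75412 peaks of the data set, 33 by symbol and 66 inside a gene body. In ATAC-seq, the Tn5 transposase cuts and tags open DNA, so that the value of a peak reflects how accessible the region was. The libraries were made from 50000 freshly isolated muscle stem cells (MuSCs) each, the Pax7-expressing cells that regenerate skeletal muscle, sorted from adult C57BL/6 mice. Both groups carried the floxed Taf4a allele (Taf4a fl/fl). In the 3 Taf4a sKO libraries, a tamoxifen-induced CreERT under control of Pax7 removed floxed exons in Pax7-expressing cells only, so other cells of the muscle keep the gene. The 3 control libraries came from Taf4a fl/fl littermates with or without the Cre allele, and their sample titles call them WT, although the floxed allele was present. Which control carried Cre is not given in the labels. In its list of mice, the reporting summary of the study names tamoxifen treatment for the Taf4a sKO mice only. TAF4A is a subunit of the general transcription factor TFIID. Peaks with a mean value above 10 were tested with limma on log2(value + 1), and all 99 peaks passed this filter, as did 75384 of all peaks.

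IGF1 and IGF2 bind the receptor tyrosine kinase IGF1R, which phosphorylates the adaptors IRS1 and IRS2 and thereby activates PI3K and AKT. AKT phosphorylates FOXO1 and FOXO3, which then leave the nucleus, so that IGF signaling and FoxO activity oppose each other. IGF2R takes up IGF2 for degradation in lysosomes, and the IGF-binding proteins hold IGFs in the extracellular space. In MuSCs, FoxO factors are known for maintaining quiescence, whereas IGF signaling is known for promoting proliferation and growth of myogenic cells.

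The sequences of the peaks with the largest changes are given first. The following are the central 300 bases, or the whole of shorter peaks, of the most increased peaks of 3 different genes, all of them intronic, read from the GRCm38.p6 plus strand; no letter is in capitals because none of the motifs searched occurred in them.
Foxo3 chr10:42244780-42245079: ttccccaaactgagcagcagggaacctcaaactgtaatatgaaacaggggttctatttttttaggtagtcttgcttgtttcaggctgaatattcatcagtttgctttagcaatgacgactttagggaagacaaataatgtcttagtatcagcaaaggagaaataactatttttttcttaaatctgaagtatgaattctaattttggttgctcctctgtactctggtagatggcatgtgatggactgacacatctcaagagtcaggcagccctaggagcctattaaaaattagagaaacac
Irs1 chr1:82270609-82270785: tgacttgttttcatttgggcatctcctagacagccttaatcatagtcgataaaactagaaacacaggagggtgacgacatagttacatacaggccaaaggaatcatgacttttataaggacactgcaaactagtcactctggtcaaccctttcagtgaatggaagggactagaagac
Igf1r chr7:68073376-68073675: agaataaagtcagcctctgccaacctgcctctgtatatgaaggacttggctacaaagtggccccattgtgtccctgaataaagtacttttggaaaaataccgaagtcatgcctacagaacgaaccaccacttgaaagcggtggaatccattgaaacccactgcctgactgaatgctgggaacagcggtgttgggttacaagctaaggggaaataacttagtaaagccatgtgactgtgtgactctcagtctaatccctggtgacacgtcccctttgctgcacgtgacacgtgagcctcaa
The next are the most decreased peaks of the genes with such a peak, in which capitals mark the motifs found.
Igf1r chr7:68221581-68221790: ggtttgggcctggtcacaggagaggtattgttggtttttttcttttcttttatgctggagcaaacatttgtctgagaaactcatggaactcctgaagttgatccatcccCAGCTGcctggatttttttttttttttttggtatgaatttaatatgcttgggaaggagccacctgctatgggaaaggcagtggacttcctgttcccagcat
Irs1 chr1:82253094-82253381: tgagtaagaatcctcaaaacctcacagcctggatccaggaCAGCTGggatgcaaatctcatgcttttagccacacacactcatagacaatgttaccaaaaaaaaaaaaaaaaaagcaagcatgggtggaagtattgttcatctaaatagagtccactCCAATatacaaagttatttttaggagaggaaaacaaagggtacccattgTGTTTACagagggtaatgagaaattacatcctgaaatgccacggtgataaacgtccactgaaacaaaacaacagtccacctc
The motifs were the FoxO site TGTTTAC, the NF-Y site CCAAT, the E-box CAGCTG bound by myogenic factors, the AP-1 site TGANTCA and the GC box GGGCGG, each on both strands. In the decreased Igf1r peak an E-box began at base 110. In the decreased Irs1 peak an E-box began at base 41, an NF-Y site at base 158 and a FoxO site at base 207. All 3 member peaks with lower accessibility held an E-box in the 300 bases around their centre. So did 29.1% of all peaks, 24 of all 99 member peaks and 8 of the 39 with higher accessibility. Each of the 3 calls of lower accessibility was lost with some library left out. A second scaling (TMM factors, described below) called further peaks lower. Of these, the Igfbp3 peak held an E-box, while the Igf1r and Irs1 promoters and a peak in Igf1r intron 1 held none. FoxO letters were found in 4 of the 99 windows (3.76% of all peaks) and in 1 of the 39, a Foxo3 intron 2 peak with its centre 25377 bp from the start site. NF-Y letters stood in 35 of 99 windows (32.2% of all peaks) and in 11 of the 39. AP-1 letters stood in 19 of 99 (22.0% of all peaks) and in 10 of the 39. The GC box stood in 19 of 99 (20.0% of all peaks), in 5 of the 39, and in 7 of the 10 peaks nearest a start site, against 51.8% of all promoter peaks. These are counts of letters in windows, not of bound sites. Each window held 300 bases, so for shorter peaks it reached beyond the peak.

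The genotype labels were checked first. The peak over exon 12 of Taf4, one of the floxed exons, had values of 65, 78 and 137 in control and of 44, 22 and 25 in Taf4a sKO libraries, without overlap (log2 fold change -1.58 ± 0.30 SE, limma adjusted p = 3.4e-04). A residual value was thus present in each Taf4a sKO library. Taf4 peaks outside the floxed exons differed in part. The log2 fold changes were -0.83 over exon 7 (limma adjusted p = 1.4e-04), -0.49 in intron 14 (limma adjusted p = 0.027) and 0.55 upstream of the gene (limma adjusted p = 0.0030). The decrease was thus not confined to the deleted exons. The Taf4 peak nearest the start site was not called (-0.07, limma adjusted p = 0.59), but was called lower with TMM factors (-0.19, limma adjusted p = 0.0099). All 12 MuSC markers had a peak, led by Cdh15 (M-cadherin), and the value per kb of the peak nearest the start site averaged 1163 per marker in control and 1195 in Taf4a sKO libraries. The summed values per library over all peaks were 37722015, 35226223 and 42803315 in control and 44311913, 41661725 and 41948821 in Taf4a sKO libraries. In bulk libraries, fewer cells with an open region and less signal per cell cannot be told apart.

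Of the 99 peaks, 39 (39.4%) had higher accessibility in Taf4a sKO MuSCs at a limma adjusted p under 0.05, compared with 28.0% of all tested peaks. Only 3 (3.03%) were lower, compared with 13.9% of all tested peaks, and 57 were not called. The 3 lower peaks lay in Igf1r, where there were 2, and in Irs1. The median log2 fold change was 0.21 over the member peaks and 0.11 over all tested peaks. By fold, 6 peaks were gained (log2 ratio of the group means above 1) and 0 were lost, with 7.02% and 5.36% of all tested peaks gained and lost. Each Taf4a sKO value exceeded each control value in 42 peaks (32.3% of all tested peaks) and lay below each in 5 (18.0% of all tested peaks), the 3 called ones, an Igf1r peak in intron 1 and an Igfbp3 peak. The deposited scale leaves the median of all peaks at 0.11; TMM factors, which bring it to -0.0059, gave 34 higher and 7 lower member peaks with backgrounds of 25.4% and 22.3%, and a member median of 0.10. Among all calls, 66.8% were increases on the deposited scale and 53.2% with TMM factors.

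**Figure D1:**
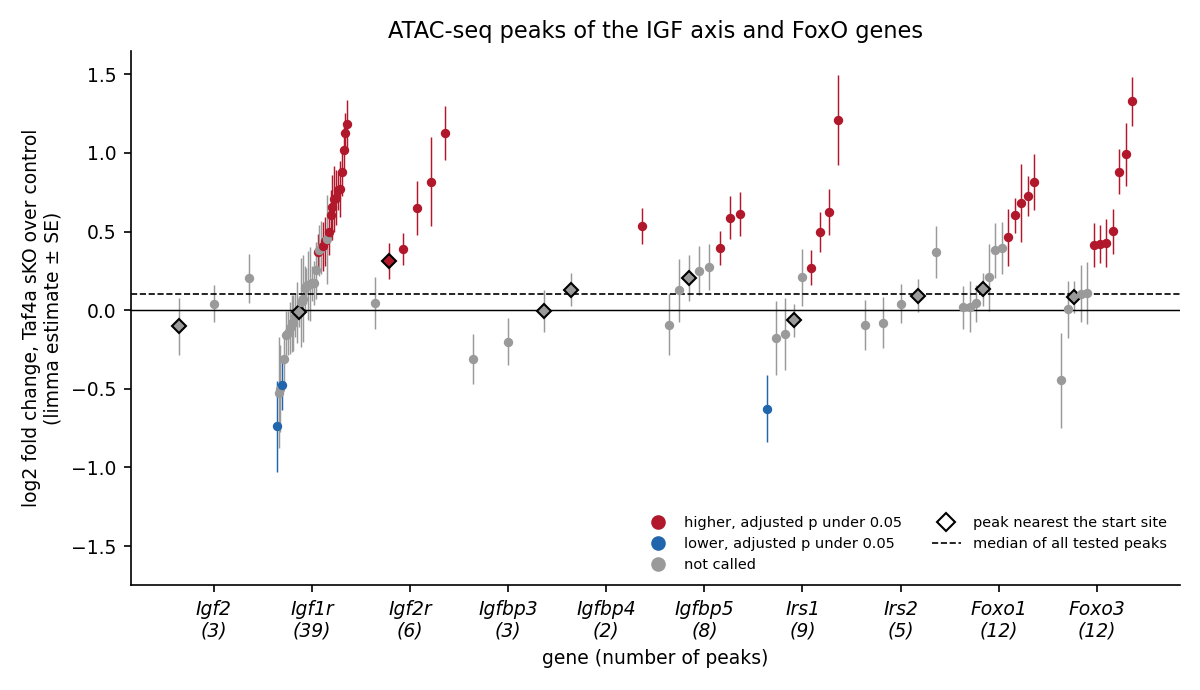
Log2 fold change (limma estimate, bars SE) of each of the 99 peaks by gene, ordered within a gene by value; red and blue points were called higher and lower, grey points were not called, diamonds are the peaks nearest a start site and the dashed line is the median of all tested peaks (0.11). Called increases were found in 7 of the 10 genes and called decreases in Igf1r and Irs1.

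Most of the increases were intronic. Of 76 peaks annotated as intronic, 34 were higher and 3 lower, with 33.6% and 15.7% for all tested intronic peaks, and their median log2 fold change was 0.37 against 0.17 for all tested intronic peaks. Of 18 peaks annotated as promoter, 3 were higher and 0 lower, against 15.8% and 8.03% of all tested promoter peaks. These 3 were the Igf2r promoter and 2 intronic peaks over alternative start sites, in Igfbp4 and in intron 2 of Igf1r. Of 5 intergenic peaks 2 were higher, both upstream of Foxo1, against 28.0% of all tested peaks of any kind. The annotation went by the centre of a peak, and none was exonic by it, although 2 of the peaks counted as intronic, both in Igf2r, overlap an exon with another part of their length.

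The peaks nearest the start sites differed widely in level, which is given here per kb of peak as the mean of the 6 libraries. Irs2 stood highest with 3046, followed by Foxo3 with 2534, Irs1 with 2025 and Igf1r with 1675, and these neighbours overlapped over the libraries. Next came Foxo1 with 1334 and Igfbp5 with 873, both separate from their neighbours. Igfbp4 with 515, Igf2r with 439 and Igfbp3 with 377 again overlapped in part, and Igf2 was lowest with 193. The Igf2 peak, however, had its centre 2478 bp from the listed start and covered no start site. Both other Igf2 peaks covered alternative starts, so this level is not that of an Igf2 start site. Of these 10 peaks, only that of Igf2r was called by limma. The other log2 fold changes lay between -0.10 for Igf2 and 0.21 for Igfbp5. With TMM factors the Igf2r call was lost (0.20, limma adjusted p = 0.068), and the peaks of Igf1r (-0.12, limma adjusted p = 0.013) and Irs1 (-0.18, limma adjusted p = 0.0054) were called lower.

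**Figure D2:**
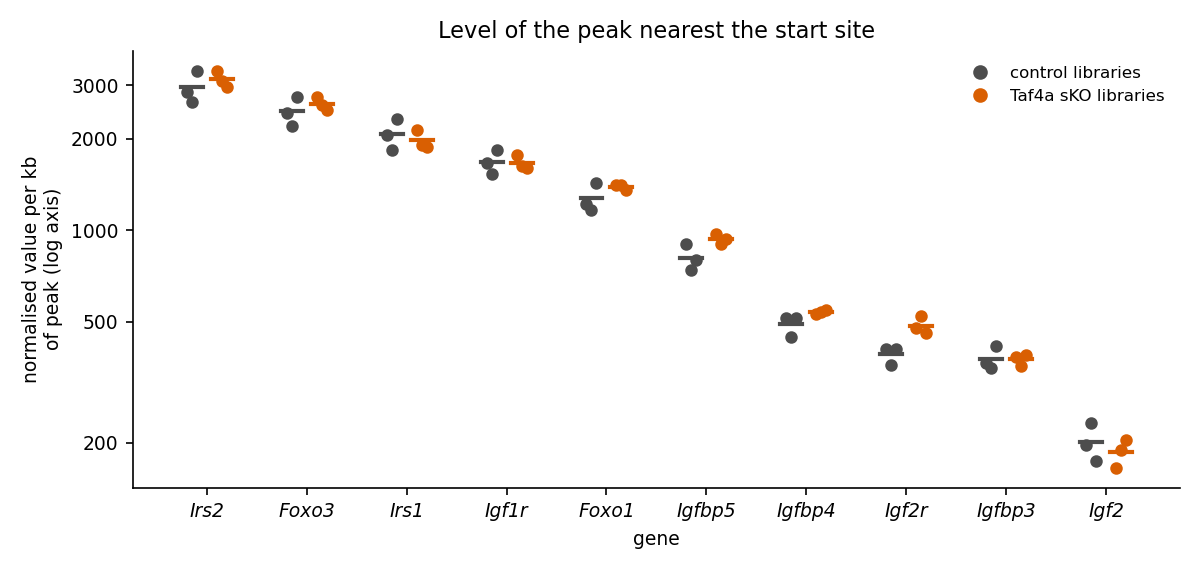
Normalized value per kb (log axis) of the peak nearest the start site of each gene; points are libraries and bars are group means. Irs2 and Foxo3 lay above 2000 in each library, Igf2 lay below 300 in each, and the genotypes were apart for Igf2r and Igfbp4. The Igf2 peak shown covers no start site of Igf2.

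Igf2, the ligand, had 3 peaks, none of which was called. The peak nearest its listed start, with its centre 2478 bp away, had values of 114, 135 and 101 in control and of 96, 110 and 119 in Taf4a sKO libraries (log2 fold change -0.10 ± 0.18 SE). The other peaks, in intron 1 over alternative starts of Igf2, had log2 fold changes of 0.04 and 0.20. The genotypes overlapped in each.

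Igf1r, the signaling receptor, had 39 peaks, of which 14 (35.9%) were higher and 2 (5.13%) lower, against 33.6% and 15.7% of all tested intronic peaks. The 14 increases lay between 0.37 and 1.18 on the log2 scale, 11 of them among the 24 peaks of intron 2. The peak at the Igf1r promoter (chr7:67950668-67953700) had values of 5064, 4644 and 5590 in control and of 5365, 4944 and 4867 in Taf4a sKO libraries, a difference within the replicate spread (-0.0087 ± 0.10 SE). Inside intron 2, chr7:68073269-68073783, whose centre is printed above, had 118, 128 and 112 in control and 297, 238 and 283 in Taf4a sKO libraries (log2 fold change 1.18 ± 0.16 SE, limma adjusted p = 2.6e-06). Each mutant library was far above each control. The peak chr7:68130987-68131618 had 342, 323 and 296 against 759, 724 and 623 (1.13 ± 0.13 SE, limma adjusted p = 4.2e-07). The peak chr7:68070520-68071085 had 144, 119 and 137 against 297, 277 and 240 (1.02 ± 0.16 SE, limma adjusted p = 1.6e-05). These 3 regions, about doubled, stood beside peaks that were not called. The peak centred 176708 bp from the start, next to the one at 178476 bp, had a log2 fold change of 0.15 at far higher values (2612, 2255 and 3055 against 3208, 2865 and 2691). The peak at 116820 bp, next to the one at 117976 bp, had -0.08, with 115, 102 and 99 against 104, 100 and 94. Called and uncalled peaks thus alternated over short distances of the same intron, although a missed threshold does not show that a value was equal. The alternative start in intron 2 (centre 196018 bp from the main start) rose from 379, 386 and 453 to 702, 673 and 688 (0.76 ± 0.12 SE, limma adjusted p = 3.2e-05). Of the decreases, the peak chr7:68152368-68152759, in intron 2, had 210, 194 and 207 in control and 142, 132 and 166 in Taf4a sKO libraries (-0.48 ± 0.16 SE, limma adjusted p = 0.017), a call lost without control replicate 1 or Taf4a sKO replicate 2 (down to -0.40). The peak chr7:68221581-68221790, in intron 20 and printed above, had 39, 46 and 34 against 21, 27 and 22 (-0.74 ± 0.29 SE, limma adjusted p = 0.043). Its values were low, and the call was lost without control replicate 1 or 2 or without Taf4a sKO replicate 1 or 3 (-0.63 to -0.75 in these fits), and also with quantile normalization (-0.65, limma adjusted p = 0.064). The remaining 23 peaks had log2 fold changes between -0.53 and 0.45.

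**Figure D3:**
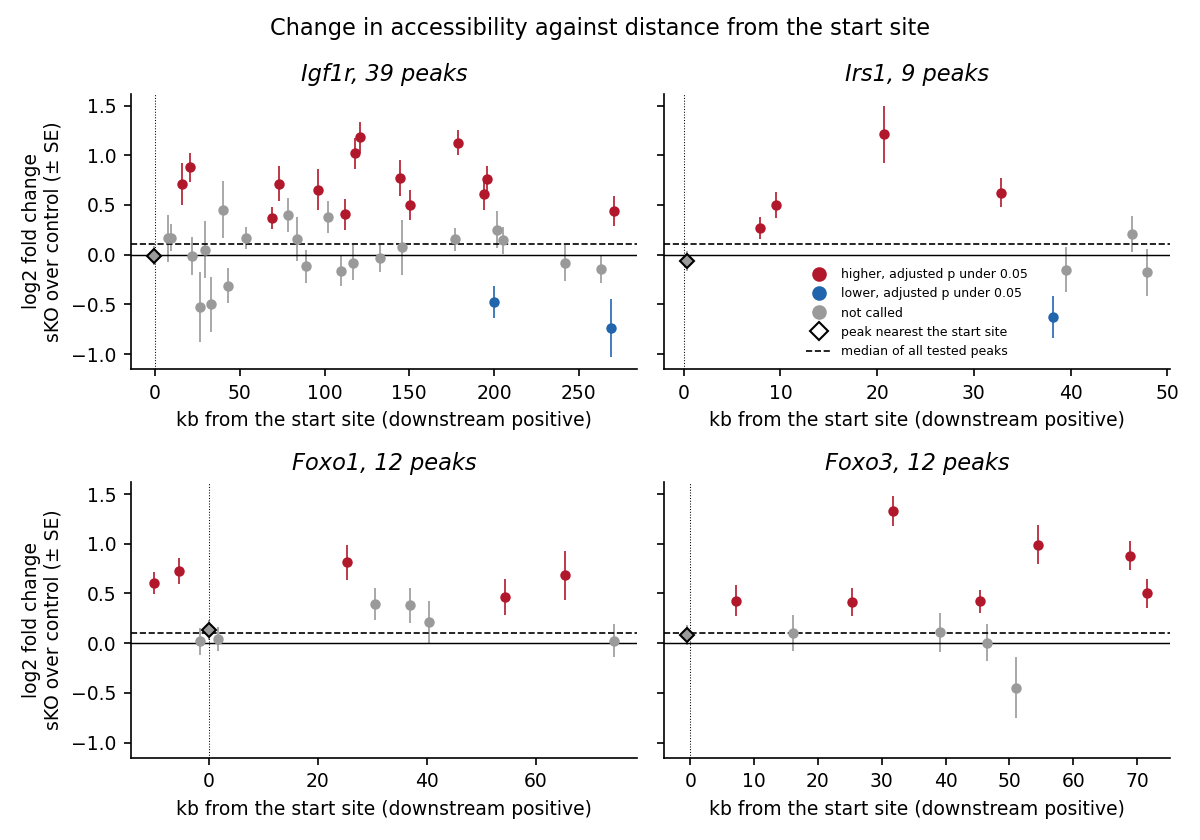
Log2 fold change (bars SE) of each peak of Igf1r, Irs1, Foxo1 and Foxo3 against the distance of its centre from the start site in kb, colours as in the plot of all member peaks. The diamonds at the start sites lay between -0.06 (Irs1) and 0.13 (Foxo1), and red points were spread along the introns, to both sides of the start in Foxo1.

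Igf2r, the scavenging receptor, had 5 increased peaks among 6, and 4 with TMM factors, against 28.0% and 25.4% of all tested peaks. The peak chr17:12688518-12689201, which overlaps exon 43, had 74, 74 and 87 in control and 176, 167 and 173 in Taf4a sKO libraries (1.13 ± 0.17 SE, limma adjusted p = 1.5e-05). The replicates were close in both genotypes. The weak peak in intron 17 (centre 54464 bp from the start) had 21, 32 and 39 against 43, 66 and 53 (0.82 ± 0.28 SE, limma adjusted p = 0.022), a call lost without control replicate 1 or 2 or Taf4a sKO replicate 2 (0.58, 0.87 and 0.67), or by total value in peaks (0.67). The peak over exon 10 had 556, 517 and 865 against 874, 1135 and 969 (0.65 ± 0.17 SE, limma adjusted p = 0.0068), and the highest control came close to the lowest mutant. A strong peak in intron 1 had a log2 fold change of 0.39 (limma adjusted p = 0.0032). At the promoter (chr17:12768562-12770208) the values were 668, 595 and 671 in control and 785, 859 and 756 in Taf4a sKO libraries (0.31 ± 0.12 SE, limma adjusted p = 0.033). This was the smallest of the Igf2r increases, and the call was lost when any library but control replicate 3 was left out (0.25 to 0.35), under the 4 other scalings (0.09 to 0.20) and without trend and robust moderation.

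Among the binding proteins, 4 of 13 peaks (30.8%) were higher, near the 28.0% of all tested peaks, and 0 were lower, against 13.9%. Igfbp5, a binding protein of the extracellular matrix, had 3 increased peaks side by side in intron 1, with centres 4087, 2859 and 2059 bp from the start. Their values were 870, 812 and 871 against 1188, 1093 and 1077 for the first (0.39 ± 0.11 SE, limma adjusted p = 0.0045). The second had 299, 332 and 398 against 497, 548 and 495 (0.59 ± 0.14 SE, limma adjusted p = 0.0012). The third had 239, 284 and 286 against 452, 386 and 397 (0.61 ± 0.14 SE, limma adjusted p = 0.0011). All 3 were without overlap between genotypes, while the Igfbp5 promoter (238, 196 and 211 against 257, 238 and 248) overlapped by a tie at 238. Igfbp4 had 2 peaks. The one over an alternative start in intron 1 (chr11:99046835-99048151) rose from 939, 823 and 1082 to 1479, 1291 and 1342 (0.54 ± 0.11 SE, limma adjusted p = 6.0e-04). The Igfbp4 promoter had 1091, 941 and 1091 against 1124, 1136 and 1152 and was not called (0.13 ± 0.11 SE, limma adjusted p = 0.35). Igfbp3, the main carrier of circulating IGFs, had 0 increased among 3 peaks, which is no test of a difference from the other binding proteins. Its promoter had 353, 341 and 404 against 371, 347 and 375. Its intron 1 peaks had log2 fold changes of -0.31 and -0.20; the first, with 181, 194 and 174 against 151, 129 and 163, was not called on the deposited scale (limma adjusted p = 0.12) and was called with TMM factors (limma adjusted p = 0.030).

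The adaptors differed from each other in counts. Irs1 had 4 increased and 1 decreased peak among 9, and Irs2 had 0 called among 5, which is no test of a difference between the genes. Together 4 of 14 adaptor peaks (28.6%) were higher, near the 28.0% of all tested peaks. Lower was 1 (7.14%), against 13.9% of all tested peaks. Most adaptor peaks were intronic, and of all tested intronic peaks 33.6% were higher and 15.7% lower. The largest Irs1 change was in the peak chr1:82270609-82270785, printed above, with 17, 22 and 28 in control and 44, 55 and 58 in Taf4a sKO libraries (1.21 ± 0.28 SE, limma adjusted p = 0.0015). It was a weak peak, close to the filter of 10 in control libraries. The peak chr1:82258312-82258999 had 188, 177 and 208 against 266, 303 and 316 (0.62 ± 0.15 SE, limma adjusted p = 0.0014). The peak with its centre 9570 bp from the start had 617, 593 and 849 against 1005, 950 and 919 (0.50 ± 0.13 SE, limma adjusted p = 0.0033). In each the genotypes did not overlap, whereas in the 4th increased peak (0.27, limma adjusted p = 0.0498) they did. The decreased peak chr1:82253094-82253381 had 76, 94 and 94 in control and 46, 66 and 59 in Taf4a sKO libraries (-0.63 ± 0.21 SE, limma adjusted p = 0.021), a call lost without control replicate 2 (-0.58) or Taf4a sKO replicate 1 (-0.48). It lay between increased and uncalled peaks of intron 1. The Irs1 promoter had 3912, 3497 and 4436 against 4073, 3637 and 3586, and that of Irs2 had 4555, 4229 and 5353 against 5344, 4941 and 4742. Both overlapped between genotypes, and that of Irs2 was called higher without control replicate 3 (0.19, limma adjusted p = 0.049).

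The FoxO genes had the highest share of increases by role, with 12 of 24 peaks higher and 0 lower. The receptors followed with 19 of 45 (42.2%) higher. Of all tested peaks, 28.0% were higher and 13.9% lower, and of all tested intronic peaks 33.6% and 15.7%. With TMM factors the shares of higher peaks were 41.7% for the FoxO genes and 35.6% for the receptors, against 25.4% of all tested peaks. The difference between roles was not tested. Foxo3 carried the largest change of all member peaks. Its peak chr10:42244522-42245338, printed above, had 126, 160 and 180 in control and 416, 382 and 366 in Taf4a sKO libraries (1.33 ± 0.15 SE, limma adjusted p = 5.0e-07). All 7 increased Foxo3 peaks lay in intron 2, which holds 11 of the 12 Foxo3 peaks, that is all but the promoter peak. The peak chr10:42222019-42222452 had 57, 101 and 95 against 168, 158 and 165 (0.99 ± 0.20 SE, limma adjusted p = 3.8e-04). The peak chr10:42207496-42208140 had 339, 438 and 531 against 844, 791 and 739 (0.88 ± 0.14 SE, limma adjusted p = 4.6e-05). The first control library was the lowest of the 6 at each of these 3 peaks, and each of the 3 calls was kept without it. The Foxo3 promoter, in contrast, had 6250, 5641 and 7047 against 7009, 6594 and 6379 and was not called (0.08 ± 0.10 SE). In Foxo1, 5 of 12 peaks were higher, 2 upstream of the gene and 3 in intron 1. Upstream, the peak chr3:52262542-52263073 had 311, 321 and 344 against 523, 541 and 551 (0.73 ± 0.13 SE, limma adjusted p = 7.4e-05). The next upstream peak toward the gene, with 254, 261 and 297 against 278, 274 and 268, was not called. In intron 1, the peak with its centre 25294 bp from the start had 107, 117 and 169 against 216, 254 and 212 (0.81 ± 0.18 SE, limma adjusted p = 6.8e-04). A weaker one at 65356 bp had 33, 42 and 65 against 76, 67 and 75 (0.68 ± 0.25 SE, limma adjusted p = 0.029), a call lost without control replicate 1 or 2 (0.47 and 0.63) or Taf4a sKO replicate 1 or 3 (0.65 and 0.66), and also with median-of-ratios factors (0.57) and by total value in peaks (0.54). The Foxo1 promoter had 1916, 1832 and 2253 against 2208, 2216 and 2132 (0.13 ± 0.10 SE) and was not called, although it was without control replicate 3 (0.22, limma adjusted p = 0.019).

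**Figure D4:**
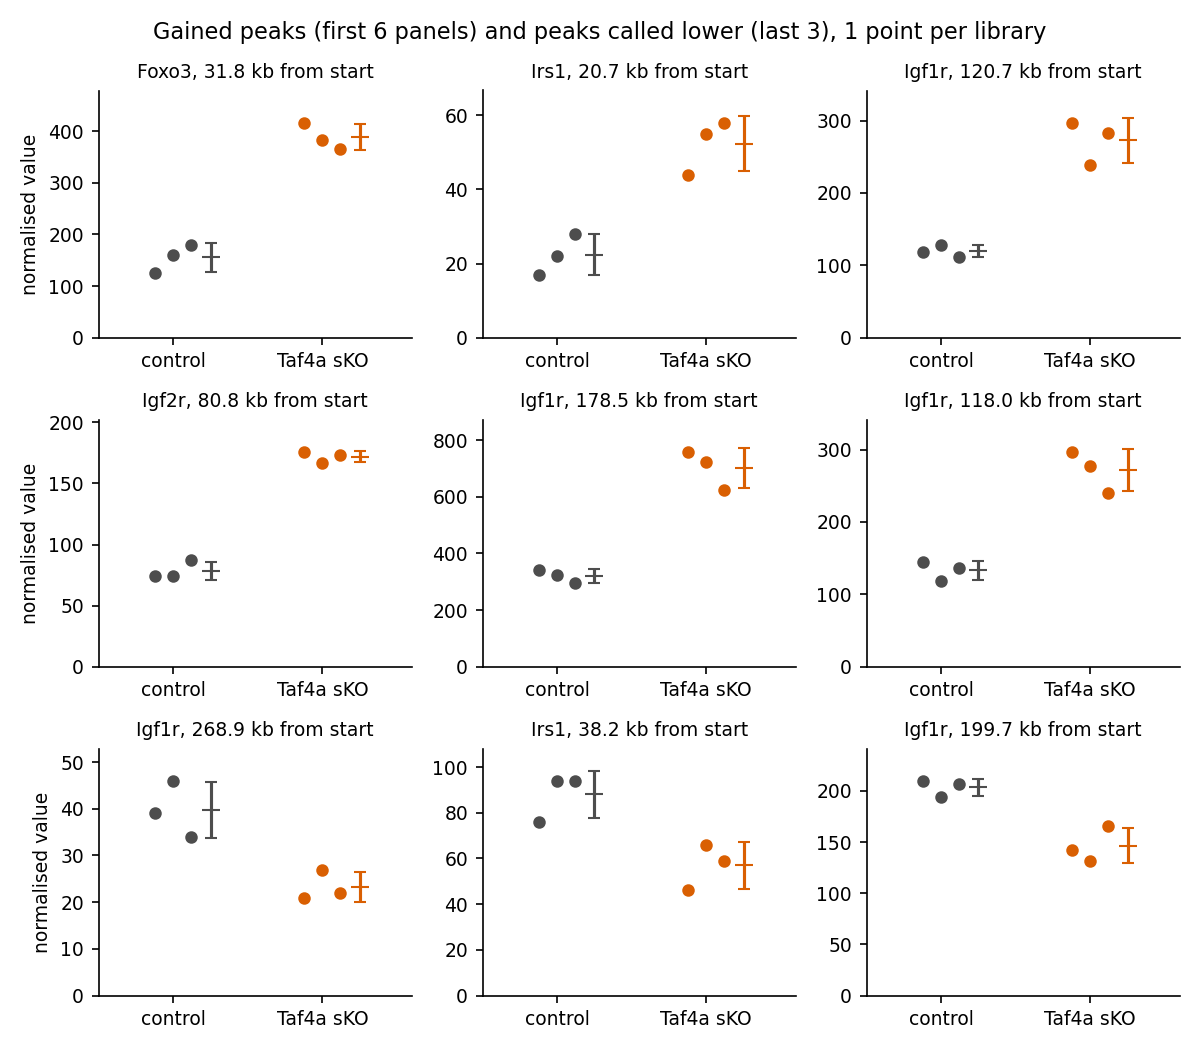
Normalized values of the 6 gained peaks and the 3 peaks called lower, each panel with its own axis from 0; points are libraries, and the bar beside them is the mean with SD (n = 3). In each panel the genotypes did not overlap.

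Whether distal regions changed relative to the promoter of the same gene was asked within each library, which makes the value independent of the scaling between libraries. For each gene, the log2 value of the peak nearest the start site was subtracted from the mean log2 value of its peaks more than 1000 bp away. Igf2 was left out because it has no peak within 1000 bp of its listed start. Distance was taken from the listed start, so that peaks over alternative starts counted as distal. The Taf4a sKO mean lay above the control mean by 0.26 in Igf1r, 0.30 in Igf2r, 0.41 in Igfbp4, 0.30 in Irs1, 0.26 in Foxo1 and 0.35 in Foxo3, each without overlap between genotypes. The Igfbp4 value rests on 1 distal peak, the one over an alternative start in intron 1, and thus compares 2 start sites. By the same rule, 27.1% of the 6695 genes of the table with both kinds of peak had each Taf4a sKO value above each control value and 28.3% had each below, with a median difference of -0.014 over these genes and of 0.26 over the 9 members. For these 6 genes the two-sided exact permutation test gave p = 0.1, the smallest that 3 against 3 libraries can give, and 0.15 after adjustment over the 9 genes. In Igf1r the control libraries had -5.06, -4.99 and -5.17 and the Taf4a sKO libraries -4.81, -4.80 and -4.83. In Foxo3 they had -5.38, -5.02 and -5.19 against -4.82, -4.95 and -4.78. The value was 0.11 in Igfbp5 (exact permutation p = 0.7), -0.03 in Irs2 (exact permutation p = 0.6) and -0.25 in Igfbp3 (exact permutation p = 0.2), with overlapping genotypes. No gene passed the threshold, which this design cannot reach.

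**Figure D5:**
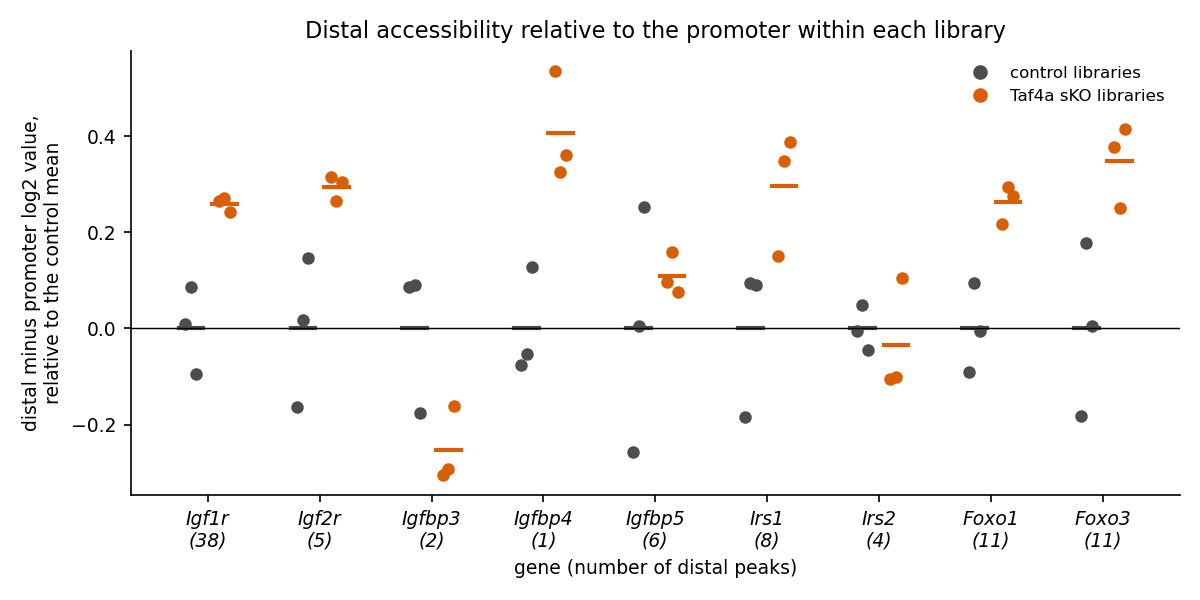
Mean log2 value of distal peaks minus log2 value of the peak nearest the start site, relative to the control mean of each gene; points are libraries and bars are group means. The Taf4a sKO points lay above all control points in Igf1r, Igf2r, Igfbp4, Irs1, Foxo1 and Foxo3, as in 27.1% of all genes with both kinds of peak. The 1 distal peak of Igfbp4 covers an alternative start.

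The other genes of the insulin and IGF pathway showed both directions. Of a list of 60 genes, 58 had at least 1 of 277 peaks, and Igfals and Pappa2 had none. Here 84 peaks (30.3%) were higher and 30 (10.8%) lower, close to the shares of all tested peaks, with a median log2 fold change of 0.11. Increases were led by intronic peaks of Igfbp7, which rose from 17.7 ± 0.58 to 108 ± 13.3 (SD, n = 3; 2.54), and of Grb2, the adaptor that links receptors to Ras (1.68). They were followed by Htra1, a protease that cleaves binding proteins (1.40), and Deptor, an inhibitor of mTOR (1.40). The largest decreases were at Inpp5d (SHIP1, a lipid phosphatase), from 29.0 ± 6.08 to 5.67 ± 2.52 (SD, n = 3; -2.23), at Phlpp1, an AKT phosphatase (-1.82), at Ptpn1, an insulin receptor phosphatase (-1.57), and at Tsc2, an inhibitor of mTORC1 (-1.39). All 8 passed the test without overlap. Of 38 genes described as FoxO targets, 37 had peaks, 122 in all, and Atg12 had none. Of these peaks, 33 (27.0%) were higher, near the 28.0% of all tested peaks, and 2 (1.64%) lower, against 13.9%, with a median of 0.11 as over all tested peaks. Increases were led by Trim63, a ubiquitin ligase of muscle atrophy (2.24), Notch3 (1.62), Gadd45a, which takes part in growth arrest (1.36), and Kl (1.31). The 2 decreases were in Pdk4, which restrains glucose oxidation (-0.76), and Ccng2, a cyclin linked to cell cycle exit (-0.47). Both were without overlap between genotypes. With TMM factors the lower peaks numbered 58 of 277 in the pathway list and 17 of 122 in the target list, where 22.3% of all tested peaks were lower. Rictor is in both lists, and Notch3 is also among the smooth muscle and pericyte markers.

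Per the methods, the sort removed cells with SCA1, CD45 or CD31 on their surface, which mark fibro-adipogenic, blood and endothelial cells, and kept cells with integrin-α7 or the Pax7 zsGreen reporter. Reanalysis of sorted cells, per the reporting summary of the study, showed that the sort was not complete, so part of the sorted cells could be other cells. Accessibility at markers of such and other cells moved in part with genotype, and its part in the results was not tested. Each list is given as its summed value per kb of the peaks nearest the start sites. Of 7 fibro-adipogenic markers 6 had a peak, summing to 2815, 2490 and 3029 in control and to 3431, 3184 and 3255 in Taf4a sKO libraries, without overlap. In that list Dcn, Col1a1, Col1a2 and Lum rose, while the defining Pdgfra and Dpt, the most accessible one, fell, and Ly6a had no peak. The endothelial sum, from 4 of 6 markers with Tek leading, was 1353, 1182 and 1618 against 1743, 1718 and 1617, overlapping narrowly, with Emcn and Sox17 without a peak, and Tek rose. The smooth muscle and pericyte sum, from 5 of 6 markers with Notch3 leading and Rgs5 absent, was 4467, 4326 and 5045 against 5077, 4894 and 5006, and Acta2 and Myh11 rose. The defining haematopoietic marker Ptprc (CD45) had no peak, nor had Itgam, Cd3e and Lyz2, and the 3 markers with a peak summed to 1369, 1516 and 1915 against 1466, 1376 and 1552, with Cd68, the most accessible, lower and Csf1r higher. The myofibre list (6 of 6, Mylk2 leading) summed to 3223 ± 186 and 3110 ± 198 (SD, n = 3), with Acta1 and Ttn lower. The list of activated or differentiating myoblasts (6 of 6, Ccnb1 leading) summed to 4240 ± 371 and 4265 ± 231 (SD, n = 3), in which Myod1 and Mymk rose and Myog fell. Among the MuSC markers themselves, Vcam1, Fgfr4 and Msc rose and Pax7 fell (-0.32, limma adjusted p = 0.030).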

How the data were processed

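ATAC-seq libraries of 3 control and 3 Taf4a sKO samples were analysed. Each deposited value is a score, the read count of a peak in a library after the authors had normalized it for depth and rounded it. Per their methods, reads were trimmed (Trimmomatic 0.39), aligned to mm10 (STAR 2.7.11b) and cleared of duplicates (Picard 3.1.1) and of reads that were multi-mapping, spliced, mitochondrial or ribosomal. MACS peaks, called per sample with no input control, were unified before counting with featureCounts. Whether positions were shifted for Tn5 is not stated. Fold changes and other contrast columns of the authors were not used.

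Because these values are not raw counts, limma 3.58.1 (R 4.3.3) with trend and robust moderation was fitted to log2(value + 1) of all 75384 peaks with a mean above 10, with Benjamini-Hochberg adjustment. This pseudocount understates changes of weak peaks. Exact permutation tests used SciPy 1.17.1. The fit was tested on simulated data. Each limma p-value weighs a difference of means against the spread between these 3 libraries per genotype, moderated over all tested peaks. Places came from GENCODE vM21, whose coordinates matched 99.1% of the 21400 genes in the table, and sequences from RefSeq GRCm38.p6. Peak coordinates are as deposited and were read as 1-based.

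The members and lists were chosen with earlier results of these data known. Named were the peak nearest each start site, up to 3 called peaks per gene and direction with genotypes apart, and up to 4 peaks per direction of the other lists. The peaks named beside them, which are neighbours of called peaks, further called peaks and peaks in counts of 5 or fewer, were chosen after their values were seen. Alternatives covered scaling, pseudocount, filter, variance model, replicate block, membership, fold and each library left out. Some marker genes of other cell types are not reported here.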

Additional observations from a re-analysis of the deposited data

How the results depend on the processing

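The test rests on 3 libraries per genotype, and weak peaks with values below 100 carry the widest errors. Of the 32 member peaks named by rule, 23 were called; 17 of these kept their call and direction under each of the 16 alternatives in which they were tested, and none of the 23 changed direction. The number of higher member peaks was 39 and lay between 29 and 48 with 1 library left out. Where a count moved with the scaling or a library, the cause was not tested. With symbols only, fewer peaks were tested: 11 member peaks of 33 were higher, 0 lower and 0 gained, 21 pathway peaks of 114 were higher and 6 lower, and 1 target peak of 96 was lower. Lower member peaks, 3 on the deposited scale, numbered 7 with TMM or median-of-ratios factors, 10 by total value in peaks and 9 with quantile normalization, and 1 to 3 with 1 library left out (1 without control replicate 1 or 2 or Taf4a sKO replicate 1). Lower pathway peaks, 30 on the deposited scale, numbered 58, 58, 69 and 68 under these scalings. Lower target peaks, 2 on the deposited scale, numbered 17, 19, 27 and 26, and 1 to 3 with 1 library left out (1 without Taf4a sKO replicate 2). Gained member peaks, 6 on the deposited scale, numbered 3 by total value in peaks, 5 to 9 with 1 library left out, 23 at 1.5-fold and 0 at a log2 threshold of 1.5, and lost ones numbered 2 at 1.5-fold. Higher target peaks numbered 22 to 49, and higher pathway peaks 66 to 113, with 1 library left out. The distal minus promoter value of Igfbp5 turned to -0.031 with distal peaks beyond 3000 bp and lay between -0.019 and 0.24 with 1 library left out; that of Irs2 lay between -0.10 and 0.0015.

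Among the 32 member peaks named by rule, the log2 fold changes that turned direction were those of peaks nearest a start site, none of them called on the deposited scale with all 6 libraries (Foxo1 and Irs2 were called higher without control replicate 3); the other member peaks were not followed one by one under the alternatives. Under TMM, median-of-ratios, total value and quantile scaling, Foxo3 turned to -0.029, -0.031, -0.066 (limma adjusted p = 0.048) and -0.016, and Irs2 to -0.018, -0.020, -0.055 and -0.0042. By total value Foxo1 turned to -0.015, and Igfbp4 turned to -0.017 by total value and -0.054 by quantile scaling. With 1 library left out, the peaks lay between -0.074 and 0.060 in Igf1r, -0.20 and 0.0081 in Igf2, -0.052 and 0.070 in Igfbp3, and -0.15 and 0.023 in Irs1.

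Whether the replicate numbers pair animals is not given in the labels. Deviations of same-numbered libraries correlated at 0.11, -0.12 and -0.03, and those of differently numbered ones at -0.12 to 0.15. With 3 libraries per genotype, these values cannot decide whether libraries were paired. With the number as a replicate block, 40 member peaks were higher and 2 lower, 39 of the higher ones shared with the unblocked fit, 84 pathway peaks were higher and 35 lower, and 31 target peaks were higher and 3 lower. The intron 20 peak of Igf1r lost its call (limma adjusted p = 0.0504).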
